A study of Physcomitrium patens with 8 samples.

Results

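The transcripts described here were lowered by abscisic acid and by drying in wild-type colonies of the moss Physcomitrium patens and were still low a day after water was given back. They were chosen on the wild-type (WT) channels of 8 2-colour arrays. A probe was taken if it was well above background on both WT Hydration arrays, if its median-centred log2 signal lay at least 2 below Hydration on ABA and in Dehydration, and if it lay at least 1.5 below Hydration in Rehydration, each as the mean of 2 arrays. This gave 274 probes of 237 loci out of 38181 gene probes of 32103 loci on the array. Of the 17840 probes well above background on both WT Hydration arrays, 709 passed the ABA and Dehydration criteria, and the other 435 of those (called the comparison probes here) did not pass the Rehydration criterion.

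Each array compared atg5, a mutant line in which the autophagy related gene 5 was knocked out and which the labels call autophagy deficient, with WT after the same treatment. Rehydration stands for colonies put back on fresh medium for 24 h after drying, Dehydration for colonies kept over silica gel for 24 h, ABA for colonies kept under light for 24 h on medium with 50 µM cis-trans abscisic acid, and Hydration for colonies after 7 days of culture. All colonies were protonemata grown at 25 °C under continuous light on a medium with ammonium tartrate and glucose. Each treatment had 2 arrays, named biological replicates in the labels; atg5 carried Cy5 and WT Cy3 in replicate 1, and the dyes were exchanged in replicate 2. The labels name 1 atg5 line, and a treatment with abscisic acid ahead of drying is not mentioned in them.

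Protonemata are the filaments by which a moss spreads after spore germination. Abscisic acid is the hormone through which land plants slow growth and prepare cells for water loss, and moss filaments that receive it before drying are known to survive drying better. ATG5 takes part in forming autophagosomes, the membrane vesicles that carry parts of the cell to the vacuole for breakdown and reuse. The arrays' identifiers are paired with no gene names in the sources used here, so the functions of the transcripts are not given. An identifier is read here as a scaffold, a number along it and, after V6, a transcript model, so that Pp1s2_677V6.2 and Pp1s2_677V6.5 are probes of 1 locus.

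The Rehydration arrays were dimmer than the others: 29.2 and 23.3% of all gene probes were well above background in their atg5 channels and 19.3 and 30.6% in their WT channels, against 37.0 to 53.4% in the channels of the other treatments. No gene spot was saturated (0 of 38316 on each array). Many members were near the background after treatment. In atg5, 87 of the 274 were well above background on both Rehydration arrays, 163 on both Dehydration arrays and 127 on both ABA arrays, against 255 on both Hydration arrays. A fall into the background gives only a lower limit to its size, and for such members the difference is stated as at least so many fold. Fewer cells with a transcript and less transcript per cell cannot be told apart in RNA from whole colonies.

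**Figure D1:**
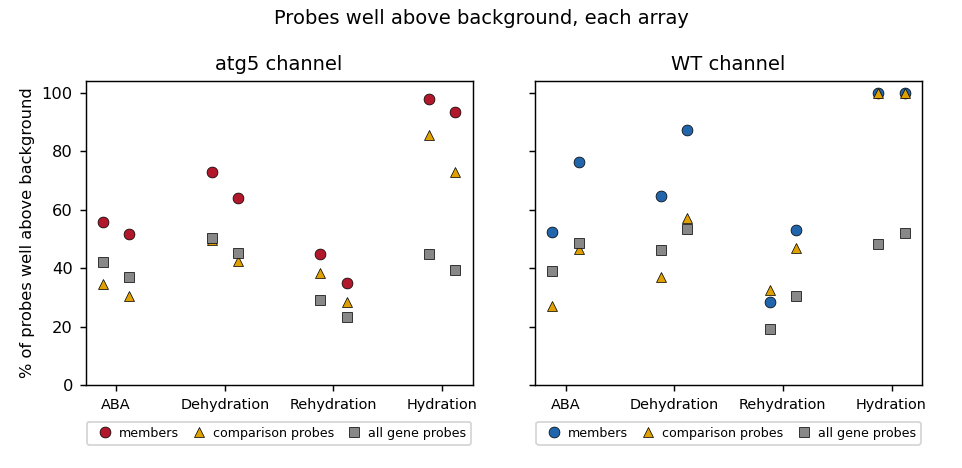
Share of probes well above background (percent) in the atg5 channel (left) and the WT channel (right) of each array, replicate 1 left of replicate 2, for the members, the comparison probes and all gene probes. In atg5 the members fell to 44.9 and 35.0% on the Rehydration arrays, against 97.8 and 93.4% on the Hydration arrays; the WT Hydration value of 100% was set by the rule for both lists.

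In WT, the values that chose the members are a description. On the scale of the rule their median log2 difference from Hydration was -2.89 on ABA (-7.10 to -2.0), -3.08 in Dehydration (-10.52 to -2.03) and -2.10 in Rehydration (-4.35 to -1.5). Many of these WT falls also ended in the background, where their size is uncertain. In Rehydration 71 of the 274 were well above background on both WT arrays and 122 on neither. The counts were 139 and 61 on ABA and 175 and 33 in Dehydration. The WT level was higher in Rehydration than in Dehydration for 237 of the 274, a count that the stricter Dehydration threshold of the rule favours. On each replicate taken alone, 136 members passed all 3 thresholds. Probes chosen on replicate 1 alone numbered 291, and 136 of them (46.7%) passed on replicate 2, where their median difference in Rehydration was -1.72, against -2.25 on the replicate that chose them. Of the 269 chosen on replicate 2 alone, 50.6% passed on replicate 1, with a Rehydration median of -1.78 there, against -2.12. With signals corrected by normexp, normalized by loess and scaled by Aquantile, the same thresholds were passed by 59 probes, 53 of them members, and by construction the offset of that correction compresses the differences of dim probes.

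Just inside a threshold lay Pp1s29_162V6.1 (ABA difference -2.0012) and Pp1s14_121V6.1 (ABA difference -2.0036), and Pp1s309_65V6.2, whose Rehydration difference was -1.5037. Other probes of these loci, Pp1s29_162V6.2 and Pp1s309_65V6.1, are not members and had WT Rehydration differences of -0.57 and 1.0. Just outside lay Pp1s76_46V6.1, Pp1s43_252V6.2 and Pp1s116_110V6.1, with Dehydration differences of -1.9945, -1.9939 and -1.9902 and all other criteria met.

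The signals of the atg5 channels had no part in the choice, although these channels share arrays and spots with the WT channels. Their above-background marks entered it only through the set of probes used for centring. In the atg5 channels the members were again low after every treatment. Values from here on are log2 differences in a limma separate-channel fit of all 16 channels, which holds 19141 probes and 264 of the members; the other 10 had a spot left out for an outlier mark. A call is an adjusted p under 0.05, with Benjamini-Hochberg adjustment over all 19141 probes. On ABA, 218 of the 264 were called lower in atg5 and 1 higher, where 12.3% of all probes tested were called lower and 10.7% higher. The members' median was -1.48 (quartiles -2.20 and -0.93), beside -0.01 over all probes. In Dehydration, 226 were called lower and 2 higher, against backgrounds of 13.9 and 13.2%, with a median of -1.5 beside 0.00 over all probes. The 2 replicates had members' medians of -1.49 and -1.44 on ABA and of -1.56 and -1.46 in Dehydration. By the filter, 70 members were kept through Hydration groups alone, with no treated group well above background on both arrays. A fall in these 70 was favoured by the choice. The counts here and in Rehydration were not separated for them. Of the 116 members well above background on both ABA and both Hydration arrays of atg5, 101 were called lower and 0 higher. In Dehydration 139 of 153 such members were called lower and 0 higher. The shares called among all probes meeting the same criteria were not counted.

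A day after rehydration, 198 of the 264 members were still called lower in atg5 than in Hydration and 2 were called higher, where 15.7% of all probes were called lower and 15.8% higher. The median was -1.29 (quartiles -1.88 and -0.67), beside 0.02 over all probes, and it was -1.27 and -1.23 on the 2 replicates. A fall of at least 2-fold was called for 176 members on ABA, 183 in Dehydration and 150 in Rehydration, and for 4.82, 5.91 and 7.29% of all probes tested. In all 3 treatments 186 members (70.5%) were called lower, where 6.77% of all probes were, 25 were called lower on ABA and in Dehydration only, 5 in Rehydration only and 26 in none. The shares of all probes in these last 3 classes were 3.0, 6.51 and 77.1%. Among the 82 members well above background on both Rehydration and both Hydration arrays of atg5, 64 were called lower and 0 higher, with a median of -1.76. Among the other 182, whose size is a limit or rests on fewer arrays, 134 were called lower, with a median of -1.08. The shares of all probes divided in this way were not counted.

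**Figure D2:**
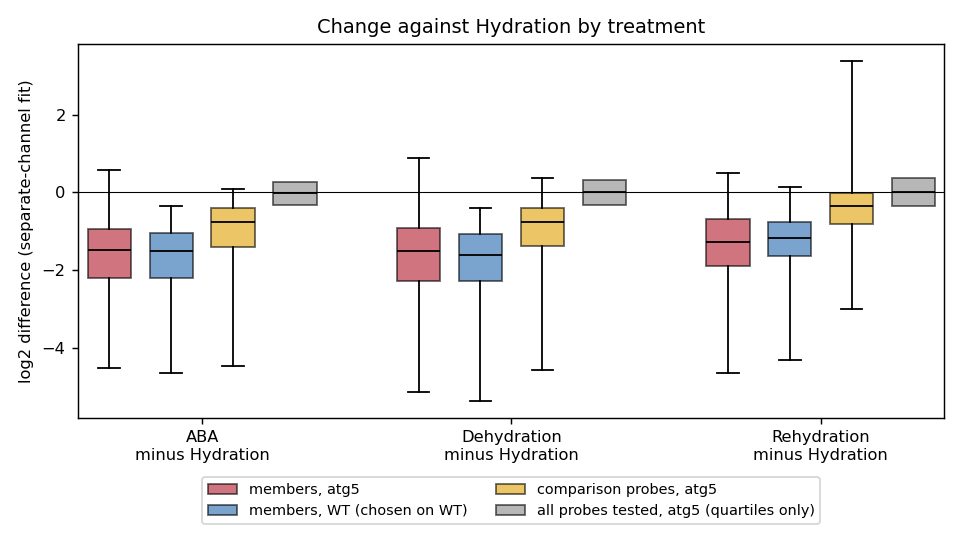
Log2 difference from Hydration (separate-channel fit) for the members in atg5 and in WT, the comparison probes in atg5 and all probes tested in atg5. Boxes span the quartiles with the median as a line and whiskers reach the lowest and highest probe (no whiskers for all probes); the atg5 medians of the members are -1.48, -1.5 and -1.29, and those of the comparison probes -0.76, -0.76 and -0.36.

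The comparison probes differ from the members in the Rehydration criterion, set on WT, and also in brightness. In atg5 Hydration 85.7 and 72.9% of them were well above background, against 97.8 and 93.4% of the members. The offset of the fit makes differences of dim probes smaller. On the scale of the rule the atg5 medians were -2.52 and -3.02 on ABA, comparison probes first. They were -2.76 and -3.21 in Dehydration and -0.99 and -2.47 in Rehydration. The WT values that split the lists come from the same spots as the atg5 values, with an intraspot correlation of 0.659. How much of the fitted gap goes with brightness or with shared spots was not tested. On ABA 245 of the 422 comparison probes in the fit were called lower in atg5, and in Dehydration 259, with a median of -0.76 in both. In Rehydration 141 were called lower and 13 higher, with a median of -0.36, beside -1.29 in the members. On the scale of the rule, 238 of the 274 members passed the ABA threshold in atg5 and 234 the Dehydration threshold, where 7.8 and 8.88% of all probes well above background in WT Hydration did. Further, 216 of the 274 members and 129 of the 435 comparison probes lay at least 1.5 below Hydration in atg5 Rehydration, against 13.2% of those probes. Applied to the atg5 channels themselves the rule took 519 probes, of which 183 were members, 66.8% of the members and 35.3% of the atg5 list. Only counts and medians are given for this comparison, since WT values set which probes are in either list.

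Between rehydrated and dried atg5 colonies, most members did not pass the test: 61 were called higher in Rehydration, 12 lower and 191 neither, where 10.7% of all probes were called higher and 11.1% lower. The median difference was 0.29, beside 0.01 over all probes. Among comparison probes 135 were called higher and 3 lower, with a median of 0.42. The sign of this difference depends on scaling: when the 2 spike-in probes set the scale in place of Aquantile, 0 members were called higher in Rehydration than in Dehydration and 62 lower, and 120 in place of 226 were called lower in Dehydration than in Hydration. That scaling moved all probes, whose atg5 medians became -0.99 and 0.96 for these 2 differences. Less the median of all probes, the members' median between Rehydration and Dehydration was 0.68 with spike-in scaling and 0.28 with Aquantile. Between Dehydration and Hydration it was -1.77 and -1.5 in the same order. Without Dehydration replicate 1 or 2, 36 and 38 members were called higher in Rehydration than in Dehydration.

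Among the members with the largest atg5 falls after rehydration was Pp1s346_19V6.1. Its atg5 levels (log2) were 7.10 and 7.84 on ABA, 7.82 and 7.73 in Dehydration and 6.72 and 7.95 in Rehydration, against 11.97 and 12 in Hydration. The treated levels did not overlap with Hydration in any treatment. The Rehydration difference was -4.65 ± 0.403 (SE, limma, adjusted p = 9.27e-06), with 1 of the 2 Rehydration arrays well above background. In WT the levels were 6.77 and 8.29 in Rehydration, against 11.87 and 11.82 in Hydration.

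Pp1s459_1V6.1 stayed bright enough to be measured in every channel. It had atg5 levels of 11.37 and 11.45 on ABA, 10.69 and 10.84 in Dehydration and 10.52 and 10.68 in Rehydration, against 14.39 and 14.58 in Hydration. The Rehydration level was thus no higher than the dried one, and the 2 differed by -0.16 ± 0.124 (SE, limma, adjusted p = 0.391). Against Hydration the Rehydration difference was -3.89 ± 0.124 (SE, limma, adjusted p = 5.73e-09), a 14.8-fold fall. The WT channels gave 10.85 and 10.78 in Rehydration, against 13.81 and 13.94 in Hydration.

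Pp1s20_77V6.1 was lower after rehydration than when dried. Its atg5 levels were 8.08 and 9.03 in Rehydration, against 9.73 and 9.56 in Dehydration and 12.13 and 12.35 in Hydration. The difference from Dehydration was -1.09 ± 0.236 (SE, limma, adjusted p = 0.00771) and that from Hydration -3.68 ± 0.236 (adjusted p = 1.07e-06). The 2 Rehydration arrays lay about as far apart from each other as their mean lay from the dried level, and the call against Dehydration was lost with processed signals (-0.11, adjusted p = 0.901), with atg5 channels only (adjusted p = 0.0606) and without Dehydration replicate 1 (adjusted p = 0.0766).

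Pp1s1_461V6.1 was not well above background on either atg5 Rehydration array. Its level was at least 12.9-fold lower in atg5 Rehydration than in Hydration (mean levels 6.98 and 10.67, limma, adjusted p = 3.66e-08). Pp1s139_88V6.1 had atg5 levels of 8.57 and 6.23 in Rehydration, against 11.26 and 11.63 in Hydration, so that its fall of -4.05 ± 0.801 (SE, limma, adjusted p = 0.00285) rests on 2 arrays that disagreed by more than 2 log2 units. The WT channels of the same arrays, with 9.78 and 6.53, disagreed in the same way.

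Pp1s236_72V6.2 had the lowest mean change in WT and Pp1s267_61V6.2 was also among the 6 lowest; neither was well above background on any treated atg5 array. In atg5 Pp1s236_72V6.2 was at least 7.23-fold lower on ABA, 8.22-fold lower in Dehydration and 5.78-fold lower in Rehydration than in Hydration, where its levels were 9.40 and 8.95 (limma, adjusted p of 1.89e-05, 1.03e-05 and 3.70e-05). Pp1s267_61V6.2 was at least 8.55, 9.60 and 5.81-fold lower in the same order, with Hydration levels of 9.27 and 9.49. Of the others in that group, Pp1s428_1V6.1 and Pp1s236_1V6.1 were left out of the fit for outlier-marked spots. On the scale of the rule Pp1s428_1V6.1 had WT differences of -3.04 on ABA, -10.52 in Dehydration and -2.27 in Rehydration. Those of Pp1s236_1V6.1 were -4.43, -6.72 and -4.20. Each of these 2 was well above background on 1 of the 2 WT Dehydration arrays. Another probe of locus Pp1s236_72, Pp1s236_72V6.1, is not a member. On the same scale its WT differences were -5.15 on ABA, -4.27 in Dehydration and -1.27 in Rehydration.

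Probes of 1 locus did not always return together. Locus Pp1s2_677 had 4 member probes, as many as any locus. On ABA they fell alike in atg5, with differences from -2.63 to -2.58 and levels between 7.07 and 7.36 on the arrays, against 9.61 to 10.03 in Hydration. After rehydration they divided. Pp1s2_677V6.3 had atg5 levels of 8.49 and 8.40 in Rehydration, against 6.19 and 7.08 in Dehydration, a difference of 1.81 ± 0.254 (SE, limma, adjusted p = 0.00061). Pp1s2_677V6.4 had 8.33 and 8.40 in Rehydration, against 7.24 and 7.17 in Dehydration, a difference of 1.16 ± 0.189 (adjusted p = 0.00151). Both had moved part of the way back and remained below Hydration by -1.43. With spike-in scaling the difference of Pp1s2_677V6.4 from Dehydration turned to -0.53, and that of Pp1s2_677V6.3 was 0.30 and no longer called (adjusted p = 0.532).

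The other member probes of Pp1s2_677 stayed as low as when dried or lower. Pp1s2_677V6.2 had 6.87 and 6.97 in atg5 Rehydration, against 7.27 and 7.04 in Dehydration, and that difference of -0.23 ± 0.189 did not pass (limma, adjusted p = 0.42). Pp1s2_677V6.5 had 6.13 and 6.19 in Rehydration, against 7.21 and 7.10 in Dehydration, and fell at least 1.43-fold further (limma, adjusted p = 0.000594), being well above background on both dried arrays and on neither rehydrated one; with processed signals this call was lost (-0.81, adjusted p = 0.0752). It was at least 9.40-fold lower in Rehydration than in Hydration. The WT channels divided in the same way, with fitted differences between Rehydration and Dehydration of 2.16 for Pp1s2_677V6.3, 1.45 for Pp1s2_677V6.4, -0.21 for Pp1s2_677V6.2 and -1.12 for Pp1s2_677V6.5. Another probe of the locus, Pp1s2_677V6.1, is not a member: on the scale of the rule its WT difference from Hydration was -2.53 on ABA, -5.53 in Dehydration and -0.86 in Rehydration. The probe sequences are not in the sources used here, so which exons or ends they match is not given.

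**Figure D3:**
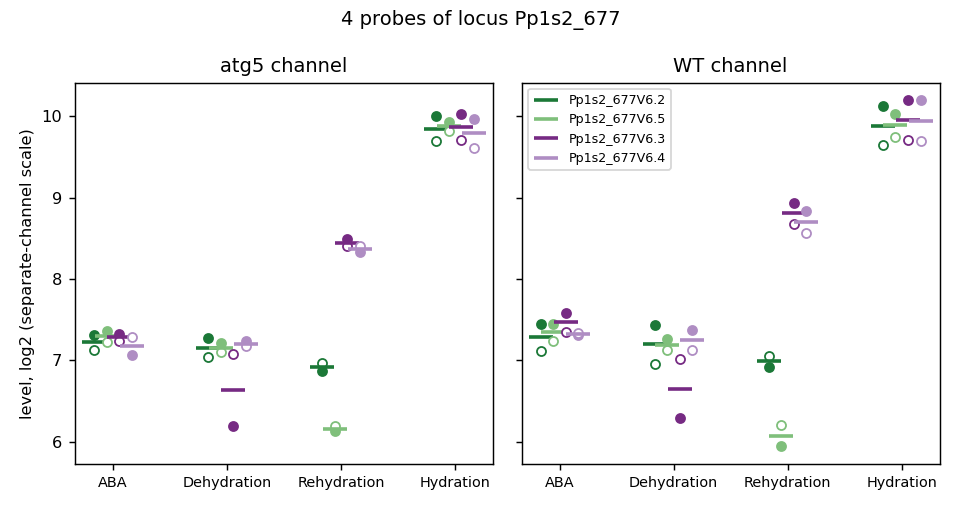
Levels (log2, separate-channel scale) of the 4 member probes of locus Pp1s2_677 in the atg5 channel (left) and the WT channel (right); filled points are replicate 1, open points replicate 2, and bars their mean. In Rehydration Pp1s2_677V6.3 and Pp1s2_677V6.4 lie above their own Dehydration values in both genotypes, whereas Pp1s2_677V6.5 lies below its own.

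The members brightest in WT Hydration were Pp1s459_2V6.2, Pp1s428_13V6.1 and Pp1s82_3V6.1, and all their channels were well above background. Pp1s428_13V6.1 moved part of the way back in both genotypes, with atg5 levels of 14.45 and 15.08 in Rehydration, against 12.95 and 13.05 in Dehydration and 15.81 and 15.41 in Hydration. Rehydration exceeded Dehydration by 1.77 ± 0.285 (SE, limma, adjusted p = 0.00142). On the scale of the rule its WT Rehydration difference from Hydration was -1.82. In atg5 it was still called lower in Rehydration than in Hydration. That call was lost with a replicate block (-0.84, limma, adjusted p = 0.0851). It was also lost among probes well above background in all 16 channels (-0.87, adjusted p = 0.0542). Pp1s82_3V6.1 had atg5 levels of 11.83 and 12.07 in Rehydration, against 9.91 and 10.07 in Dehydration and 13.93 and 14.13 in Hydration, a difference between Rehydration and Dehydration of 1.96 ± 0.272 (adjusted p = 0.000565). With spike-in scaling these 2 differences turned to -1.29 and -0.75, and that of Pp1s459_2V6.2 to -2.37. The atg5 levels of Pp1s82_3V6.1 in Rehydration lay below its WT levels of 13.15 and 13.02.

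Pp1s459_2V6.2, whose number follows that of Pp1s459_1 on the same scaffold, differed by genotype after rehydration. Its atg5 levels were 12.62 and 13.16 in Rehydration, against 12.31 and 12.48 in Dehydration and 15.70 and 15.61 in Hydration. The atg5 difference between Rehydration and Dehydration was 0.49 ± 0.271 (SE, limma, adjusted p = 0.226), whereas the fitted WT difference was 2.02. WT levels were 14.45 and 14.29 in Rehydration, against 12.39 and 12.31 in Dehydration and 15.10 and 15.56 in Hydration. Within the Rehydration arrays the log2 ratio of atg5 over WT was -1.83 and -1.13, beside 0.60 and 0.05 on the Hydration arrays. No test is given for the genotypes, because the WT values chose the probe. Another probe of the locus, Pp1s459_2V6.1, is not a member and did not show this return in WT. On the scale of the rule its WT difference from Hydration was -1.66 on ABA, -3.79 in Dehydration and -3.32 in Rehydration. Those of Pp1s459_2V6.2 were -2.76, -3.09 and -1.79.

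**Figure D4:**
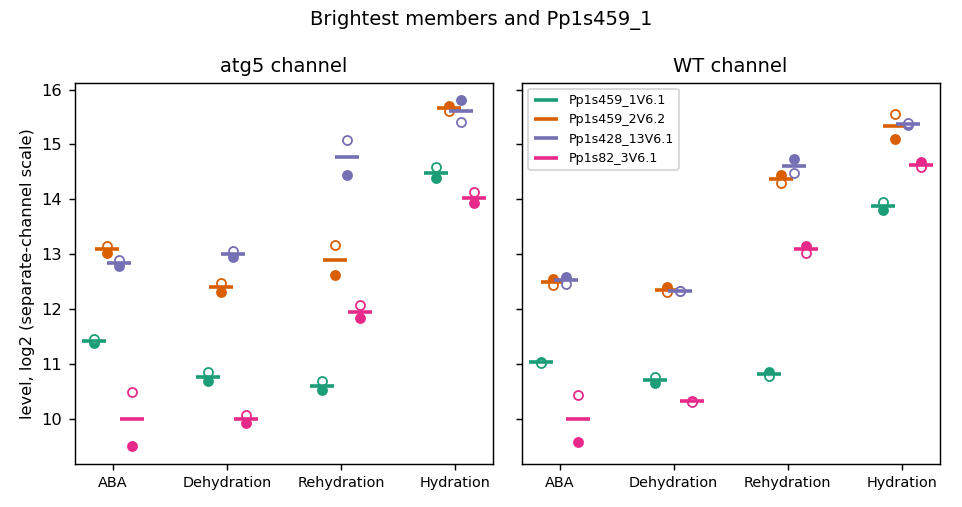
Levels (log2, separate-channel scale) of the 3 members brightest in WT Hydration and of Pp1s459_1V6.1 in the atg5 channel (left) and the WT channel (right), symbols as in the plot of locus Pp1s2_677. In Rehydration Pp1s459_2V6.2 lies at 12.62 and 13.16 in atg5 and at 14.45 and 14.29 in WT, while Pp1s459_1V6.1 stays near its Dehydration level in both.

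Over all members the median ratio between the genotypes lay near 0, although large ratios were not rare. The median log2 ratio of atg5 over WT within arrays was -0.03 on ABA, -0.03 in Dehydration, -0.06 in Rehydration and -0.03 in Hydration. Where both channels were near the background, the offset draws a ratio towards 0, so a small median does not show that the genotypes were alike. In Rehydration 42.7% of the members were lower in atg5 on both arrays and 19.3% higher. The shares were 47.1 and 17.6% of the comparison probes and 29.7 and 31.1% of all probes kept. A mean ratio of at least 1 was found for 17 members on ABA, 19 in Dehydration, 0 in Rehydration and 17 in Hydration. A mean ratio of -1 or less was found for 0, 0, 6 and 11 in the same order. Among all 19739 probes kept, ratios of at least 1 numbered 225 on ABA, 330 in Dehydration, 118 in Rehydration and 394 in Hydration, and ratios of -1 or less 19, 25, 179 and 223. The 6 in Rehydration are Pp1s459_2V6.2, Pp1s201_82V6.2, Pp1s201_82V6.3, Pp1s82_3V6.1, Pp1s82_3V6.2 and Pp1s51_117V6.2, named after their values were seen.

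Several members were brighter in atg5 than in WT in Hydration and came down further after rehydration. Pp1s44_300V6.2 had atg5 levels of 8.65 and 6.5 in Rehydration, against 11.53 and 11.70 in Hydration, and WT levels of 8.21 and 6.60 in Rehydration, against 9.19 and 9.23 in Hydration. Its atg5 fall was -4.04 ± 0.572 (SE, limma, adjusted p = 0.000314), and the 2 Rehydration arrays disagreed in both genotypes. On ABA its atg5 levels of 10.12 and 10.17 gave a difference of -1.47 ± 0.572 that did not pass (adjusted p = 0.0947). Another probe of its locus, Pp1s44_300V6.1, is not a member. On the scale of the rule its WT difference in Rehydration was -0.17, beside -1.93 for Pp1s44_300V6.2.

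Locus Pp1s16_315 had 3 member probes, and Pp1s16_315V6.4 was left out of the fit for an outlier-marked spot. Pp1s16_315V6.3 had atg5 levels of 9.05 and 8.82 in Rehydration, against 10.27 and 10.08 in Dehydration and 11.38 and 11.32 in Hydration. It fell further between dried and rehydrated atg5 colonies, by -1.24 ± 0.183 (SE, limma, adjusted p = 0.000821), while the fitted WT difference was 0.94. Its ratio of atg5 over WT was 2.58 and 2.39 in Hydration and 0.84 and 1.06 in Rehydration. Pp1s16_315V6.1 had Rehydration levels of 8.44 and 7.65 in atg5, against 9.58 and 7.68 in Dehydration, a difference of -0.59 ± 0.53 that did not pass (adjusted p = 0.471).

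Pp1s37_150V6.2, named after its values were seen, was called lower in atg5 in Rehydration and in neither of the other treatments. Its atg5 levels were 9.17 and 8.88 on ABA, 8.79 and 8.54 in Dehydration and 7.43 and 7.4 in Rehydration, against 8.86 and 8.98 in Hydration. The differences of 0.10 on ABA and -0.26 in Dehydration did not pass (limma, adjusted p of 0.692 and 0.232), and that of -1.5 ± 0.145 (SE) in Rehydration did (adjusted p = 2.06e-05). In WT the levels were 7.66 and 7.24 on ABA and 7.18 and 6.92 in Dehydration, against 9.04 and 9.16 in Hydration. Of the 12 members lower in rehydrated than in dried atg5 colonies, 2 more are named after their values were seen. Pp1s3_387V6.1 also had the opposite sign in WT (-1.31 in atg5, limma, adjusted p = 0.00017, beside 0.67 in WT), and Pp1s75_20V6.2 had the same sign (at least 2.10-fold lower in atg5, adjusted p = 0.00176, beside -1.04 in WT). Another probe of that locus, Pp1s75_20V6.1, is not a member and was higher in Rehydration than in Dehydration in WT. On the scale of the rule it differed from Hydration by -0.66 and -2.73.

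Other members were brighter in WT than in atg5 in Hydration. All 4 probes of locus Pp1s55_301 were members, and none was well above background on any treated atg5 array. The filter kept them through Hydration groups alone, so a fall in them was favoured by the choice. In atg5 Hydration, Pp1s55_301V6.1 was well above background on 2 arrays. Pp1s55_301V6.2, Pp1s55_301V6.3 and Pp1s55_301V6.4 were so on 1, so their falls start near the background. Pp1s55_301V6.2 had atg5 levels of 6.13 and 6.75 in Rehydration, against 6.44 and 6.54 in Hydration, and WT levels of 6.27 and 6.98 in Rehydration, against 8.15 and 8.24 in Hydration. Its atg5 difference in Rehydration was -0.05 ± 0.198 (SE, limma, adjusted p = 0.872). In atg5 Pp1s55_301V6.1 was called lower in all 3 treatments (at least 1.36-fold on ABA, 1.53-fold in Dehydration and 1.06-fold in Rehydration), Pp1s55_301V6.3 on ABA and in Dehydration (at least 1.16 and 1.35-fold), Pp1s55_301V6.2 in Dehydration (at least 1.34-fold) and Pp1s55_301V6.4 in none. Pp1s154_58V6.1 likewise had atg5 levels of 6.51 and 6.96 and WT levels of 8.40 and 8.27 in Hydration, and it was called lower in atg5 on ABA (at least 1.36-fold, limma, adjusted p = 0.0372) and in Dehydration (at least 1.59-fold, adjusted p = 0.0187) but not in Rehydration (adjusted p = 0.174), with no treated atg5 array well above background. With spike-in scaling, and without Hydration replicate 2 (adjusted p of 0.0637 to 0.215), the atg5 calls of Pp1s154_58V6.1 and of the Pp1s55_301 probes were lost. In all, 14 members were well above background on both arrays of WT Hydration and of no other group.

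The few members called higher in atg5 were also dim. Pp1s293_16V6.3, named after its values were seen, was not well above background on either atg5 Hydration array (levels 6.13 and 6.35) and was so on both ABA arrays (6.79 and 6.66) and both Dehydration arrays (7.19 and 7.07). It was at least 1.41-fold higher on ABA (limma, adjusted p = 0.0205) and at least 1.86-fold higher in Dehydration (adjusted p = 0.000475) than in Hydration. In Dehydration its neighbour probe Pp1s293_16V6.2 exceeded Hydration at least 1.56-fold (adjusted p = 0.0487). In Rehydration Pp1s293_16V6.3 was called higher (adjusted p = 0.0141) with both groups below background, and Pp1s59_112V6.1 was called higher (adjusted p = 0.0253) with 1 array of 4 well above background; on processed signals the second difference was -0.08. The Dehydration call of Pp1s293_16V6.3 held under every alternative run for it; its ABA and Rehydration calls and the other calls of this kind were lost with quantile normalization and without Hydration replicate 1 (adjusted p of 0.119 to 0.204).

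**Figure D5:**
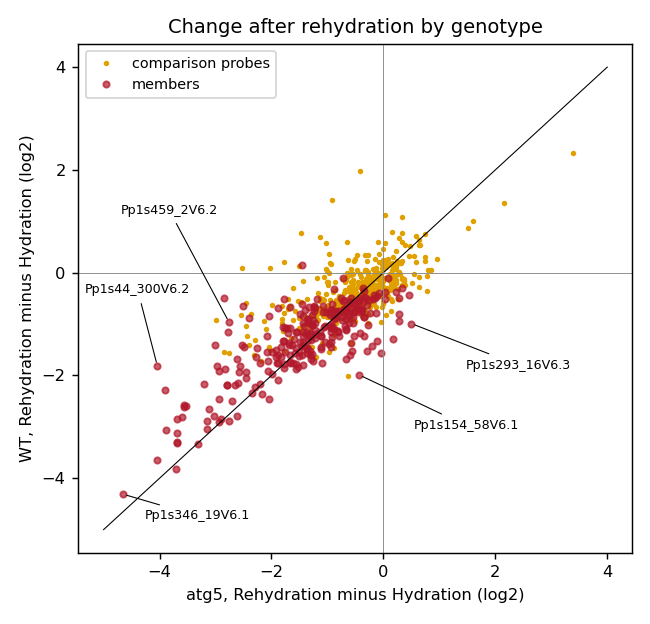
Log2 difference between Rehydration and Hydration in atg5 (horizontal) and WT (vertical) for members and comparison probes, from the separate-channel fit; the line marks equal values. Pp1s346_19V6.1 is low in both at -4.65 and -4.31, Pp1s459_2V6.2 and Pp1s44_300V6.2 lie lower in atg5 than in WT, and Pp1s154_58V6.1 and Pp1s293_16V6.3 lie lower in WT.

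The remaining members named for the smallest fall or a rise in atg5 Rehydration were near the background or had returned. Pp1s262_60V6.1, well above background in all its atg5 channels, had 8.87 and 8.54 in Rehydration, against 7.91 and 7.82 in Dehydration and 8.47 and 8.39 in Hydration. It fell on ABA by -1.0 ± 0.163 (SE, limma, adjusted p = 0.00102), and its Rehydration level did not differ from Hydration beyond the test (0.28 ± 0.163, adjusted p = 0.226). Pp1s134_161V6.1, Pp1s12_160V6.1, Pp1s313_58V6.1 and Pp1s43_12V6.1 had differences of 0.46, 0.27, 0.27 and 0.23, none of which passed, and atg5 Hydration levels between 5.88 and 6.60.

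By position, the members came from 161 scaffolds, 17 of which held 3 or more member loci. Consecutive numbers were held by 5 member loci: the run Pp1s339_28, Pp1s339_29 and Pp1s339_30, and the pair Pp1s459_1 and Pp1s459_2. Of the 237 member loci, 89 had a locus at the next number that was well above background in WT Hydration. In atg5 Rehydration Pp1s339_28V6.1 differed from Hydration by -0.94 (limma, adjusted p = 0.00124). The other two, not well above background on either Rehydration array, were at least 1.42-fold lower (Pp1s339_29V6.1, adjusted p = 0.012) and at least 1.26-fold lower (Pp1s339_30V6.1, adjusted p = 0.00285). The probes of the run were named after their values were seen, and with spike-in scaling the calls of Pp1s339_29V6.1 and Pp1s339_30V6.1 were lost (adjusted p of 0.452 and 0.573), as was that of Pp1s339_29V6.1 without Hydration replicate 1 (adjusted p = 0.152). Of the member loci, 209 had 1 member probe, 21 had 2 and 7 had 3 or more. Member loci held 86 other probes, of which 78 were well above background in WT Hydration. Of these 78, 40 passed the ABA threshold, 47 the Dehydration threshold and 20 the Rehydration threshold, and 61 lay below Hydration in all 3 treatments. Of all probes well above background in WT Hydration, 6.91, 8.05 and 14.4% passed these thresholds.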

How the data were processed

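WT and atg5 RNA was hybridised together on 8 arrays, 2 for each of 4 treatments, so that a group has n = 2. The deposited scanner files hold spot intensity values on a linear scale, made with Agilent Feature Extraction 9.5.3.1 per the file headers and 9.1 per the submitters' processing notes, and the deposited normalized intensity table equals their processed signals in all 16 columns. Per the file headers, processed signals are background-subtracted and dye-normalized, and outlier and above-background marks are the software's. The members and lists were chosen with earlier results of these data known.

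For the rule, processed signals were averaged per probe, and each channel's log2 values were centred on the median of the 5475 probes well above background in all 16 channels. For tests, median pixel intensities were corrected by normexp (offset 50) against local background medians, normalized by loess (control spots weighted 0) and Aquantile, and fitted with limma 3.58.1 in R 4.3.3 (lmscFit, intraspot correlation 0.659, eBayes, two-sided). Outlier-marked spots were left out. A probe was kept if 1 or more of the 8 groups had it well above background on both arrays (19739 probes), and the 19141 with a spot on every array were tested. The offset makes differences of dim probes smaller than on the rule's scale. Where no array of a group was well above background, its level was set, per array, to the higher of its own and the lowest level well above background, and the fold is given as at least that size. The number of arrays limits the precision.

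Replicate, slide, scan and dye orientation coincide, and exchanged dyes cancel dye effects in group means. Genes named are, by rule, the 6 members lowest in WT, 3 on each side of a threshold, the 6 largest and 6 smallest falls in atg5 Rehydration, the 3 brightest and the 3 loci with most member probes; others are said to be named after their values were seen. No identifier matched the reference table of 27567 genes (0 matches), so the ATG5 transcript and the keyword lists were not analysed here. Alternatives were other scaling, filters, spots, channels, a replicate block and leaving out arrays. The fit was tested on simulated data.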

Additional observations from a re-analysis of the deposited data

Results flagged for a closer look

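In 8 cases both treated arrays of a member lay above both Hydration arrays in atg5 and below them in WT. The WT part of this condition was favoured by the rule that chose the members. With 2 arrays in a group, the atg5 part can also be met by chance. The share of all probes with such opposite shifts was not counted, so the 8 cases cannot be judged against a background. The difference between the genotypes was not tested, since WT values chose the members. Pp1s293_16V6.3 had fitted differences of 0.49 in atg5 and -1.05 in WT on ABA, of 0.89 and -1.15 in Dehydration, and of 0.50 and -0.99 in Rehydration. Pp1s293_16V6.2 had 0.59 in atg5 and -1.04 in WT on ABA, and 0.64 and -1.37 in Dehydration. In Hydration neither of these probes was well above background in atg5 on any array, and both were so in WT on both arrays. Pp1s180_73V6.1, named after its values were seen, had 0.13 in atg5 and -1.06 in WT in Dehydration. In Rehydration Pp1s262_60V6.1 had 0.28 in atg5 and -0.94 in WT, and Pp1s59_112V6.1 had 0.33 in atg5 and -0.30 in WT. Groups of 2 arrays are too small for a test of single outlying arrays.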

How the results depend on the processing

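Other scalings and filters kept the members low in atg5. The counts called lower on ABA, in Dehydration and in Rehydration were 218, 226 and 198, those of the comparison probes 245, 259 and 141, and those called higher in Rehydration than in Dehydration 61 and 135. With the 2 spike-in probes setting the scale, they were 149, 120 and 145 for the members, 115, 91 and 93 for the comparison probes, and 0 and 6 for Rehydration against Dehydration; the median difference of the members between Rehydration and Dehydration was then -0.31, and that of all probes -0.99. Restricted to probes well above background in all 16 channels, 44, 46 and 43 of 48 members and 54, 55 and 42 of 56 comparison probes were called lower, and 18 and 35 higher in Rehydration than in Dehydration, with fewer probes tested by construction. The shares of all probes called in that restricted set were not counted. With processed signals 226 comparison probes were higher in Rehydration than in Dehydration. Leaving out 1 array gave 180 to 193 members on ABA, 182 to 205 in Dehydration, 165 to 201 in Rehydration and 36 to 77 between Rehydration and Dehydration; for comparison probes it gave 179 to 197, 184 to 202, 105 to 153 and 84 to 167. The lone array left in a group is assumed to vary like the other groups. With a replicate block, 221, 232 and 198 members were called lower and 67 higher in Rehydration than in Dehydration. The replicate numbers were not taken to pair the atg5 channels, whose same-numbered deviations correlated at 0.0607 to 0.104.

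The rule took 59 probes with normexp, loess and Aquantile values, 109 with thresholds stricter by 0.5, and 269 to 291 on 1 replicate. Median atg5 over WT ratios with processed signals were -0.19 on ABA, -0.19 in Dehydration, -0.23 in Rehydration and -0.04 in Hydration; on single arrays they were -0.05 to 0.00, -0.05 to 0.01, -0.11 to -0.02 and -0.03 to -0.02. Among 1918 comparisons of 164 differences of 41 named members with an alternative, 158 lost and 52 gained a call and 11 reversed. With spike-in scaling Rehydration minus Dehydration reversed to -0.80 for Pp1s262_60V6.1, -0.53 for Pp1s2_677V6.4, -1.42 for Pp1s309_65V6.2, -0.16 for Pp1s339_28V6.1, -1.29 for Pp1s428_13V6.1, -2.37 for Pp1s459_2V6.2 and -0.75 for Pp1s82_3V6.1, and Dehydration minus Hydration to 0.30 for Pp1s262_60V6.1, 0.76 for Pp1s37_150V6.2 and 0.21 for Pp1s59_112V6.1. With processed signals Pp1s59_112V6.1 reversed to -0.08 in Rehydration. The causes were not tested.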
